A study of Danio rerio with 3 samples.

Results

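Skeletal muscle cells rich in contractile genes are the barcodes in which *actc1b*, *pvalb1*, *pvalb2*, *acta1b*, *ckma*, *ckmb* and *tnnt3b* together made up at least 2% of the transcripts. There were 585 such cells among 40973 barcodes that passed the filters and 42945 barcodes in all. The cells were chosen by the measured share of these 7 genes, so their levels in these cells, and every other difference between these cells and the other barcodes, are a description without a test. They came from scRNA-seq of trunk tissue of larval zebrafish that received a spinal cord lesion at 3 days post-fertilization (dpf). The tissue was collected 1 day later, at 4 dpf, from about 3 somites on either side of the lesion, although the labels name it spinal cord, and the cells were sorted for viability, with GFP named in addition in the design text only. Larvae were injected at the single-cell stage with a non-targeting control gRNA (gControl, 1 library) or with a highly active synthetic guide (haCR) against *sema4ab* (gSema4ab, with the technical repeats gSema4abR1 and gSema4abR2). All larvae were lesioned, so an unlesioned state is not part of the comparison. The haCR mutates its target in somatic cells, in a mosaic that can differ from cell to cell, and each library was made from 50 pooled larvae. The sources call the repeats technical and do not say whether they came from separate pools, so each condition is taken as 1 pool and no test between conditions was run.

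Skeletal muscle fibers are filled with sarcomeres, in which myosin heavy and light chains pull on actin filaments that troponin and tropomyosin open when calcium is released. In the larval zebrafish trunk, slow fibers form a superficial layer of mononucleate cells, fast fibers form the deep and multinucleate bulk of the muscle, and each type uses its own paralogs of the sarcomere proteins. New fibers arise from *pax7a*-positive progenitors through myoblasts that express *myog* and fuse to make fast fibers.

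Values are counts of unique molecular identifiers (UMIs), each marking 1 captured mRNA molecule, and they were summed over the muscle cells of a library and expressed as CPM, relative to the total UMIs of these cells. UMIs of 3′ libraries are counted once for each molecule, so levels of genes of unequal length can be set side by side. The libraries held between 139165621 and 152455137 UMIs. Intervals in brackets are 95% intervals, exact binomial for shares, exact Poisson for levels and exact conditional binomial for log2 ratios. They cover counting error only and not the spread between larvae or pools. Unless other groups are named, 3 values in a row belong to gControl, gSema4abR1 and gSema4abR2 in this order.

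The contractile-rich cells made up 158 of 13842 filtered barcodes in gControl (1.14%, 0.971 to 1.33), 206 of 13655 in gSema4abR1 (1.51%, 1.31 to 1.73) and 221 of 13476 in gSema4abR2 (1.64%, 1.43 to 1.87). The share in gControl was below that in both repeats. Its interval overlapped that of gSema4abR1 at the edge and lay below that of gSema4abR2, and the intervals of the repeats overlapped. The mean share of the repeats was 1.38-fold that of gControl, and 1.32-fold and 1.44-fold for the repeats by themselves. The cells held 1948082, 2441728 and 2113235 UMIs in the libraries. A cell had a median of 8551.5, 6840 and 5369 UMIs and of 2236.5, 1298 and 1247 detected genes, so that gControl cells were the deepest. Mitochondrial transcripts, counted from genes whose symbols start with mt-, took a median of 1.29%, 1.37% and 1.41% of the UMIs.

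How far the libraries differed depended on the threshold and on the depth asked of a barcode. From 2% to 5% of UMIs in the 7 genes there were 54, 87 and 119 cells, and from 5% upward there were 104, 119 and 102. The share of filtered barcodes with at least 5% was 0.751%, 0.871% and 0.757%, and with at least 20% it was 0.376%, 0.366% and 0.401%. At 5% gControl was still lowest, but within the interval of gSema4abR2 (0.618 to 0.918), and at 20% it lay between the repeats. Among barcodes of at least 2000 UMIs the difference was also present at high thresholds, with 1.03%, 1.32% and 1.42% at 2%, 0.402%, 0.611% and 0.533% at 10%, and 0.246% (0.166 to 0.351), 0.356% (0.257 to 0.482) and 0.367% (0.265 to 0.496) at 20%. At this depth the intervals of gControl and of both repeats overlapped at 2%, 10% and 20%. Of the cells of at least 20%, 30 of 52, 42 of 50 and 42 of 54 had this depth, so shallow cells were more frequent in gControl there. Of the cells between 2% and 5%, 4, 26 and 30 had fewer than 1000 UMIs. Among cells of at least 1000 UMIs the shares were 1.04%, 1.26% and 1.40% of the filtered barcodes. With each barcode of at least 2000 UMIs thinned to this depth, and shallower ones left out, they were 1.05% (0.877 to 1.25), 1.32% (1.12 to 1.54) and 1.45% (1.24 to 1.69).

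Transcripts of the 7 genes were also found at a low level in barcodes outside the set, as is usual in droplet data. Their share had a median of 0.0239%, 0.0574% and 0.0619% of UMIs in the other barcodes. In globin-rich barcodes, red blood cells that should lack these transcripts, it was 0.0473%, 0.0788% and 0.0755% when pooled. The background was thus higher in both repeats, while 99% of the other barcodes stayed below 0.817%, 1.09% and 1.21%. The part of this background in the number of cells near the threshold was not tested. The 10 cells just inside the threshold had 2.02 to 2.36%, 2.02 to 2.08% and 2.01 to 2.07% of UMIs in the 7 genes, and the 10 barcodes just outside had 1.82 to 1.98%, 1.86 to 1.98% and 1.91 to 2.00% (below 2 before rounding). Between 1.5% and 2% there were 33, 47 and 65 barcodes, so the set has no gap at its lower edge.

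**Figure D1:**
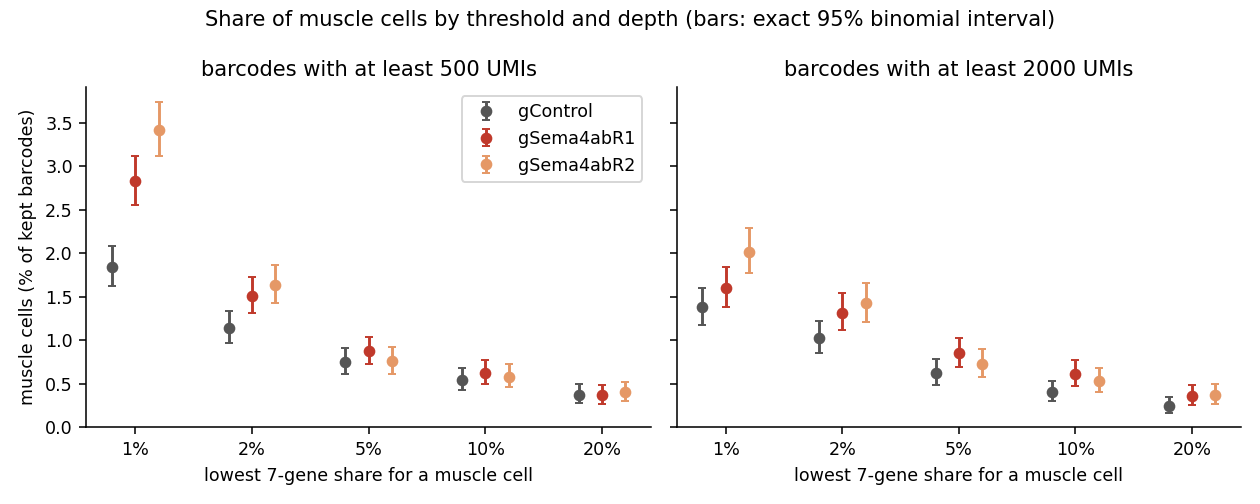
Share of filtered barcodes that are contractile-rich cells (y axis, percent) at thresholds of 1, 2, 5, 10 and 20% of UMIs in the 7 genes (x axis), for barcodes with at least 500 and at least 2000 UMIs; points are libraries and bars exact 95% intervals. At 2% gControl lies at 1.14% against 1.51% and 1.64%, and at 20% the libraries lie at 0.376%, 0.366% and 0.401%, or at 0.246%, 0.356% and 0.367% with at least 2000 UMIs.

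Most of the 7 genes were found in nearly every cell of the set. *pvalb2* and *pvalb1*, calcium-buffering parvalbumins that speed relaxation, stood at 51690, 40122 and 45599 CPM and at 35003, 28053 and 33641 CPM. *actc1b*, a sarcomeric alpha-actin, had 26652, 26711 and 29038 CPM, and *acta1b*, another skeletal alpha-actin, had 2069, 2333 and 2574 CPM. *tnnt3b*, a troponin T of fast fibers, had 10144, 8116 and 9043 CPM. The creatine kinases *ckma* and *ckmb*, which regenerate ATP at the sarcomere, stood at 6591, 6688 and 7109 CPM and at 6082, 6820 and 6857 CPM. *pvalb2* was the leading gene of the 7 in 298 cells, *actc1b* in 156, *pvalb1* in 114, *tnnt3b* in 16 and *ckma* in 1 cell. The 7 genes together took 13.8%, 11.9% and 13.4% of the summed UMIs, and up to 48.9%, 50.5% and 47.2% in a single cell. These cells held 84.3%, 77.6% and 75.9% of all UMIs of the 7 genes in filtered barcodes.

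The cells were skeletal and not cardiac by most of the heart genes looked at. The heart genes *myl7*, *cmlc1*, *tnnc1a* and *nppa* had no UMI in any of the 585 cells, in which 3 UMIs would give 0.461 CPM, and *tnnt2a* had 2 UMIs. The exception among the heart genes was *myh7*, a myosin of heart and slow muscle, with 119, 473 and 159 CPM. Outside the 7 genes, the genes that stood out most from the other barcodes were *mylpfa*, *mylz3* and *tnni2a.4*, which also ranked above some of the 7. *mylpfa*, the regulatory light chain of fast myosin, had 15354, 14970 and 15363 CPM. *mylz3*, an essential light chain, had 9906, 8592 and 10351 CPM, and *tnni2a.4*, a fast troponin I, had 8756, 7632 and 8664 CPM. *tpma* (tropomyosin), *myl1*, *myhz2*, *myhz1.1* and *myhz1.3* (fast myosin), *ttn.1* and *ttn.2* (titins, the molecular springs of the sarcomere), *atp2a1* (the calcium pump of the sarcoplasmic reticulum), *pvalb4*, *tnnt3a* and *myl13* filled the rest of the 20 leading genes. *acta1b* of the 7 genes was not among the 20. *myl13* was found in only 27.9% of the cells, with 3047, 7213 and 6385 CPM. In the other barcodes *mylpfa* had 26.6, 56.5 and 61.2 CPM.

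The cells varied along the contractile share. *ckma* was higher where the share that includes it was higher, from 3159 CPM in cells of 2 to 5% to 18154 CPM in cells of 40% or more, and *ak1*, an adenylate kinase that the rule did not use, went from 1991 to 11295 CPM over the same bins. *mylpfa* went from 3859 CPM at 2 to 5% to 22360 at 10 to 20% and 29830 at 40% or more. Other muscle genes were highest in the middle bins and lowest at the top. *atp2a1* had 4287, 5975, 7039, 4976 and 2007 CPM in the bins 2 to 5%, 5 to 10%, 10 to 20%, 20 to 40% and 40% or more. *ttn.1* had 5539, 7096, 8481, 8559 and 339 CPM, and *desma*, the intermediate filament protein desmin, had 941, 1190, 1016, 445 and 134 CPM. *dmd*, the dystrophin gene, and *cdh15*, the M-cadherin gene of myoblasts, had 328 and 331 CPM at 2 to 5% and no UMI at 40% or more. The values at the top are shares of a total of which the 7 genes alone hold more than 40%.

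Cells at the top of the range were also poor in genes. Cells of 20 to 40% had a median of 474, 746 and 730 detected genes, against 2662.5, 1316 and 1301 at 2 to 5%. Their median depth was 2572.5, 5281 and 5858 UMIs, against 10835.5, 4534 and 3395 UMIs. The cells poor in genes were thus also shallower in gControl, but deeper in both repeats. Mitochondrial transcripts took a median of 0.0265%, 0.0373% and 0.0585% in the 12, 19 and 16 cells of 40% or more, and 1.55%, 1.72% and 1.65% in the cells of 2 to 5%. The same pattern was found in every library. *myog*, the transcription factor of differentiating myoblasts, was low above 10%, going from 302 CPM at 2 to 5% and 389 at 5 to 10% to 111, 18.0 and 3.20 CPM, and *mymk*, the myomaker gene needed for fusion, went from 153 and 177 CPM to 44.7 and 2.45 CPM and no UMI.

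**Figure D2:**
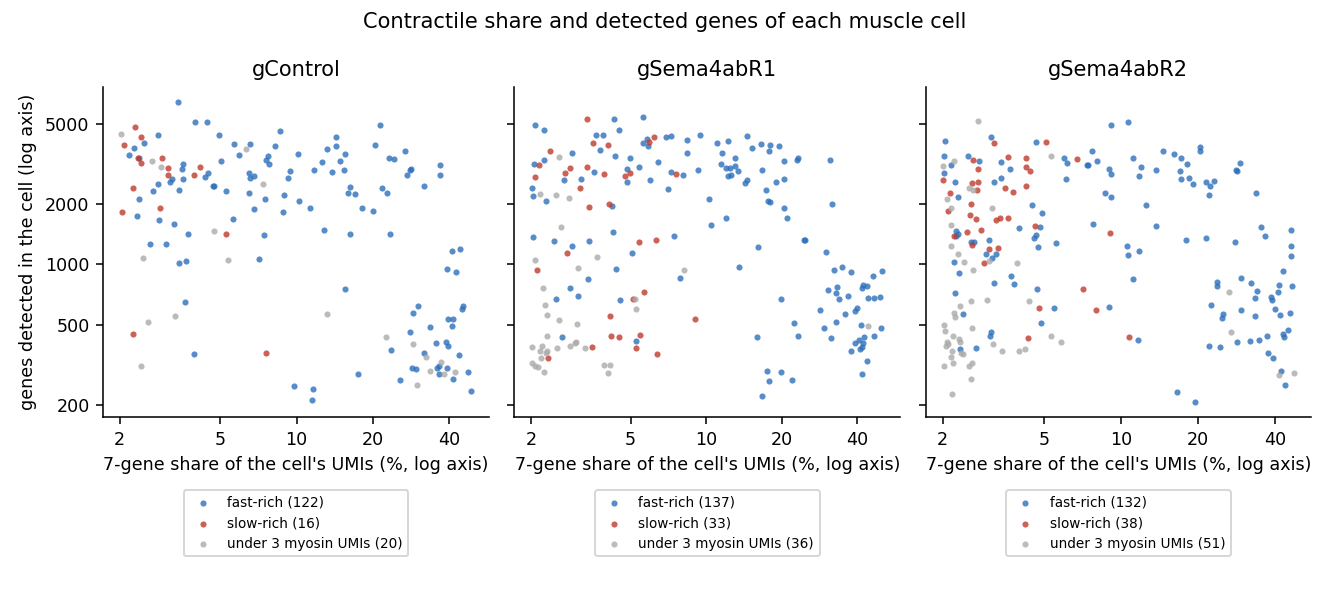
Each point is 1 contractile-rich cell, with the share of its UMIs in the 7 genes (x axis, percent, log scale) and the number of genes detected in it (y axis, log scale), in gControl, gSema4abR1 and gSema4abR2; colors mark cells with more fast or more slow myosin UMIs and cells with fewer than 3 myosin UMIs. Slow-rich cells lie at low shares of the 7 genes, with medians of 2.66%, 4.11% and 3.27%, and cells above 20% have few genes. The 7 genes were each lower in slow-rich than in fast-rich cells, such as *pvalb2* with 5396 against 56833 CPM. The share does not count the contractile genes of slow fibers.

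Slow and fast cells were separate. A cell was called slow-rich when *smyhc1*, *smyhc2* and *smyhc3* held more of at least 3 myosin UMIs than the fast genes *myhz1.1*, *myhz1.2*, *myhz1.3*, *myhz2* and *myha*, and fast-rich otherwise. There were 122, 137 and 132 fast-rich and 16, 33 and 38 slow-rich cells, while 20, 36 and 51 cells had fewer than 3 myosin UMIs. Cells with at least 90% of their myosin UMIs from 1 type were 136 of 138, 169 of 170 and 147 of 170. The cells between, 2, 1 and 23, were nearly all in gSema4abR2, where 18 of the 23 also held at least 1% of UMIs from genes of red blood cells, epidermis or immune cells and 9 were among the highest Scrublet doublet scores. The slow-rich cells in gSema4abR2 were 25 without cells that carry such genes, and those in gControl and gSema4abR1 stayed at 16 and 33. The cells with few myosin UMIs were shallow, with medians of 1295, 706.5 and 856 UMIs. They were 12.7%, 17.5% and 23.1% of the contractile-rich cells, and the fast-rich cells were 77.2%, 66.5% and 59.7%. Red blood cell genes took 0.331%, 5.99% and 5.97% of the UMIs of the cells with few myosin UMIs. Smooth muscle genes took 0.941% and 0.475% of them in gControl and gSema4abR1. These values rest on very few cells, since 1 cell held 71.4% of all UMIs of *acta2* in the set. For *tagln* 1 cell held 63.2%. Whether all of these cells were skeletal muscle was not tested.

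Slow-rich cells were 10.1%, 16% and 17.2% of the contractile-rich cells in gControl, gSema4abR1 and gSema4abR2. After thinning to 2000 UMIs they were 15 of 128, 26 of 155 and 31 of 166 cells that then met the 7-gene rule. Single genes were counted in the 125, 155 and 163 contractile-rich cells deep enough to thin, which leaves out 33, 51 and 58 shallower cells. A UMI of *smyhc1* was present in 11.2%, 18.1% and 27.0% of these thinned cells, and in 0.877%, 1.43% and 1.5% of globin-rich barcodes thinned to the same depth. Without thinning it was in 10.8%, 19.9% and 28.1% of the cells, at median depths of 8551.5, 6840 and 5369 UMIs, and in 1.26%, 2.55% and 3.87% of globin-rich barcodes, at 4065, 4784 and 5654 UMIs. The 7-gene rule took slow cells less completely than fast cells, and the slow-rich cells lay near its threshold. Of filtered barcodes with at least 0.5% of UMIs from slow myosin genes, 14 of 35, 25 of 36 and 20 of 29 were in the set, against 84 of 94, 71 of 80 and 73 of 84 for fast myosin. In the set or not, there were 35, 36 and 29 filtered barcodes with this much slow myosin. Without this minimum, 56, 72 and 94 filtered barcodes had at least 3 slow myosin UMIs and more slow than fast ones, so that the order of the libraries depended on the minimum.

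**Figure D3:**
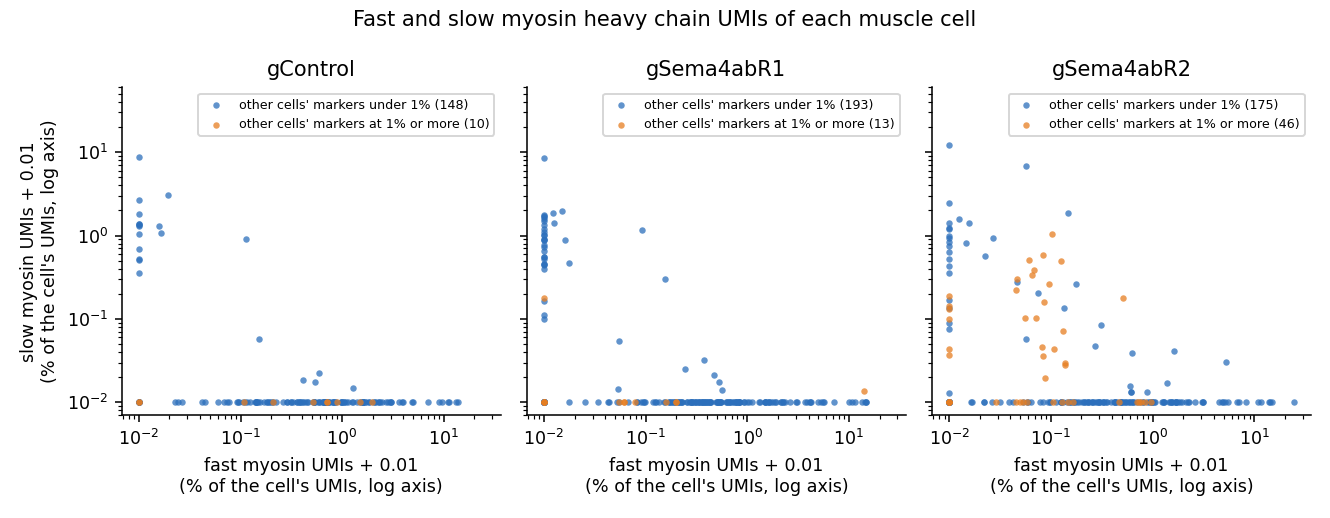
Each point is 1 contractile-rich cell, with fast myosin (x axis) and slow myosin (y axis) as percent of its UMIs after 0.01 was added (log scales), in the 3 libraries; colors mark cells with at least 1% of UMIs from genes of red blood cells, epidermis or immune cells. Cells fall along either axis, and the 23 mixed cells of gSema4abR2 contrast with 2 in gControl and 1 in gSema4abR1.

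The classes were set by myosin, and the other genes that differed between them are described without a test. *myl10*, a regulatory myosin light chain, had 144 CPM in fast-rich and 21594 CPM in slow-rich cells, *tnnc1b*, a troponin C, 61.2 and 7922 CPM, and *tnnt2e*, a troponin T, 5.40 and 4781 CPM. The tropomyosins *tpm2* and *tpm3* had 292 and 165 CPM in fast-rich cells and 6529 and 7077 CPM in slow-rich cells. *prdm1a*, a transcription factor needed for slow fate in the zebrafish embryo, had 5.0 and 118 CPM, and *myl13* had 270 and 30930.5 CPM. *pvalb4* was the parvalbumin of slow-rich cells, with 2219 and 24494 CPM, whereas *pvalb2* had 56833 CPM in fast-rich and 5396 in slow-rich cells. The calcium release channels divided likewise. *ryr1b* had 553 CPM in fast-rich and 92.4 in slow-rich cells, *ryr3* had 511 and 11.3 CPM, and *ryr1a* had 23.2 and 645 CPM.

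On the fast side, *myl1*, an essential light chain, had 5681 CPM in fast-rich and 70.6 in slow-rich cells, *tnni2a.4* had 10569 and 205 CPM, *tpma* had 8824 and 290 CPM, and *slc25a4*, a mitochondrial carrier of ADP and ATP, had 604 and 4.36 CPM. *myom2a*, a protein of the M band, had 550 CPM in fast-rich cells and no UMI in slow-rich cells, in which 3 UMIs would give 2.62 CPM. The interval of its log2 ratio of fast-rich over slow-rich cells had a lower end of 7.42. *mymk* had 109 and 8.72 CPM. Genes that both classes use stood close together, with 7474 and 5478 CPM for *ttn.1*, 5438 and 5361 for *atp2a1*, 883 and 1001 for *desma*, and 7421 and 5484 for *ckma*. *myh7*, a cardiac and slow myosin heavy chain, had 2.00 CPM in fast-rich and 1488 CPM in slow-rich cells, and 1 cell held 23.7% of its UMIs.

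**Figure D4:**
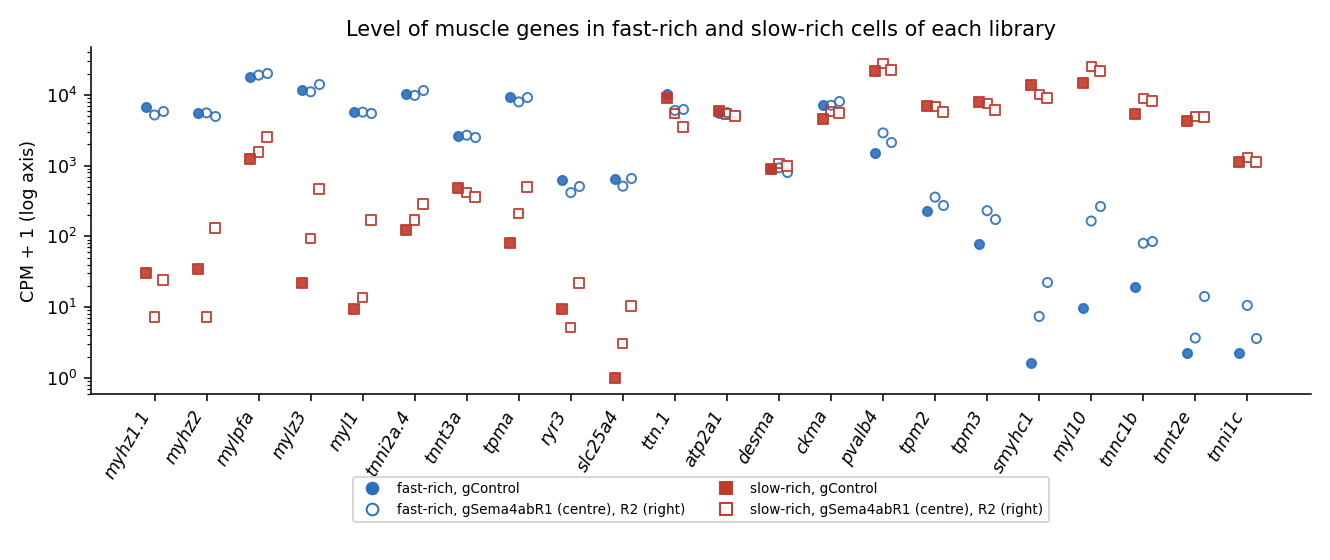
Levels (y axis, CPM after 1 was added, log scale) of 22 genes (x axis) in fast-rich (circles) and slow-rich (squares) cells of each library. *myl10* lies at 144 CPM in fast-rich and 21594 CPM in slow-rich cells over all libraries, and *atp2a1* at 5438 and 5361 CPM.

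Outside the set, 829 barcodes with *myog* (at least 2 UMIs) and 3249 barcodes with progenitor genes (at least 2 of *pax7a*, *myf5* and *meox1*) were taken for comparison. The 7 genes held 0.224%, 0.291% and 0.244% of UMIs in *myog*-positive barcodes. *actc1b* had 27449 CPM in the contractile-rich cells, 1256 CPM in *myog*-positive and 136 CPM in progenitor barcodes, and *mylpfa* had 15213, 114 and 42.6 CPM in the same groups. The chaperones that fold myosin did not follow the sarcomere genes. *unc45b* had 206 CPM in the contractile-rich cells and 174 CPM in *myog*-positive barcodes, and *hsp90aa1.1* had 976 and 1228 CPM. *musk*, the receptor kinase of the neuromuscular junction, had 240 and 341 CPM, and *chrna1*, a subunit of the acetylcholine receptor, 102 and 82.2 CPM. Division genes were low in the contractile-rich cells, with 11.3 CPM of *mki67* against 233 CPM in *myog*-positive and 119 CPM in progenitor barcodes, and with 28.6 CPM of *pcna* against 430 and 429 CPM. None of the 12 division genes reached the 50 CPM asked of a tested gene.

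The comparison of gSema4ab with gControl asked how muscle gene expression at the lesion differed when *sema4ab* was targeted. The target itself was near the limit of detection in these cells. *sema4ab* had 34, 32 and 16 UMIs, or 17.5, 13.1 and 7.57 CPM, and after thinning it was in 4.8%, 4.52% and 2.45% of the cells against 0.607%, 1.04% and 0.455% of globin-rich barcodes. Without thinning these shares were 13.9%, 10.2% and 5.88% against 2.15%, 2.43% and 2.25%. A mutated transcript can still be counted, so this level does not show whether the target was mutated. *plxnb1a*, a plexin receptor gene, had 174, 130 and 104 CPM and a log2 ratio of -0.58 (-0.76 to -0.36) and was not called.

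A gene is named tested when it had a mean of at least 50 CPM and at least 20 UMIs in all, and called when both repeats lay past 1.5-fold of gControl on the same side. Both words stand for rules of level and size, and no statistical test is behind them. Of 1748 genes, 75 were called higher (4.29%) and 189 lower (10.8%). The median log2 ratio was -0.05, and with the TMM scaling of edgeR it was 0.13 and the calls were 145 higher and 83 lower, so that the balance of the directions depends on the scaling. The repeats lay past 1.5-fold of each other for 92 genes (5.26%). The 7 genes of the rule had log2 ratios from -0.27 to 0.25 and none was called.

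Titin, nebulin and a few other scaffold genes of the sarcomere were lower in both repeats, while desmin and most others were not called. Of 27 tested scaffold and assembly genes 5 were called lower and none higher, with a median log2 ratio of -0.24. Over all tested genes 10.8% were called lower and 4.29% higher. *ttn.1* had 9686, 5715 and 5265 CPM, and a log2 ratio of -0.82 (-0.84 to -0.79). *ttn.2* had 9805, 5739 and 5385 CPM and a log2 ratio of -0.82 (-0.84 to -0.79). Both repeats lay together and below gControl for these neighboring titin genes, whose reads could be divided between them by the counting. *neb*, which encodes nebulin on the thin filament, had 2182, 1383 and 1302 CPM (log2 ratio -0.70, -0.75 to -0.64), but lost the call with TMM scaling at -0.53. *smyd1b*, a methyltransferase needed for thick filament assembly, had 213, 133 and 115 CPM, and *myom1a*, an M band protein, had 545, 358 and 359 CPM. Both lost the call with TMM scaling, at -0.60 with 1 repeat inside 1.5-fold and at -0.43. *desma*, in contrast, had 866, 929 and 810 CPM and a log2 ratio of 0.00 (-0.07 to 0.09), and *unc45b* had 213, 218 and 185 CPM.

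The lower titin level was not limited to these cells. In the other filtered barcodes the log2 ratios were -0.84 for *ttn.1*, -0.54 for *ttn.2* and -0.31 for *neb*, at 64.3, 35.4 and 36.2 CPM of *ttn.1* in gControl, gSema4abR1 and gSema4abR2, whereas *actc1b* had a log2 ratio of 0.80 there. In fast-rich cells alone *ttn.1* had 10277, 6013 and 6280 CPM, and in slow-rich cells alone 9027, 5455 and 3547 CPM. In cells with at least 10% of UMIs in the 7 genes the log2 ratio of *ttn.1* was -0.89. The direction thus held in both classes and at the higher threshold.

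Among 15 tested fast fiber genes, *myhz1.2* was called higher and *myhz1.3* and *myhc4* lower, with a median of -0.15. These counts are near the shares over all tested genes, 4.29% higher and 10.8% lower. *myhz1.3* had 3222, 1806 and 2029 CPM, *myhc4* 310, 114 and 136 CPM, and *myhz1.2* 378, 775 and 620 CPM. The myosin genes of the *myhz1* cluster are nearly identical copies, so that reads can be divided among them and their single values are uncertain. *myhz1.2* had 30.4% of its UMIs in 1 cell and a log2 ratio of 0.07 when each cell was weighted the same, and *myhz1.3* lost its call with TMM scaling, at -0.57. The other 12 genes were not called, with *mylpfa* at -0.02 (-0.04 to 0.00), *mylz3* at -0.06 (-0.10 to -0.05) and *tnni2a.4* at -0.10 (-0.14 to -0.08).

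Of 9 tested slow fiber genes 4 were called higher and 1 lower, against 4.29% and 10.8% of all tested genes. Their median was 0.55. *myl10* had 1830, 5066 and 4592 CPM (log2 ratio 1.40, 1.35 to 1.46). *tnnc1b* had 679, 1821 and 1741 CPM (1.39, 1.31 to 1.48), *tnnt2e* had 522, 969 and 1024 CPM, and *tnni1c* had 140, 260 and 230 CPM. *smyhc2*, the slow myosin next to *smyhc1*, was called lower with 154, 102 and 61.5 CPM, and *smyhc1* had 1696, 2006 and 1837 CPM. These myosin genes are close copies, so reads can be divided between them too. The slow-rich cells held 12.2%, 19.6% and 20.4% of the UMIs of the set. The summed level of slow genes includes this difference in cells. The rule that chose the cells took slow cells unequally between libraries. Of filtered barcodes with at least 0.5% slow myosin UMIs, the set held 14 of 35, 25 of 36 and 20 of 29. Without this minimum, 56, 72 and 94 filtered barcodes were slow-rich by myosin, in the set or not. The part of this unequal capture in the slow gene ratios was not tested.

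Within the slow-rich cells the slow genes did not move together. *myl10* had 14918, 25031 and 21461 CPM in them, and *tnnc1b* 5429, 8922 and 8189 CPM. *tpm2* had 7028, 6929 and 5810 CPM, and *tnnt2e* 4263, 4905 and 4928 CPM. *smyhc1* itself was highest in gControl, with 13896, 10212 and 8911 CPM, and so was *smyhc2*, with 1262, 525 and 297 CPM. The gControl values rest on 16 cells. In fast-rich cells *myl10* had 14, 307 and 397 UMIs, or 8.65, 164 and 264 CPM.

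Calcium handling genes had 4 lower calls and 1 higher call among 21 tested, against 10.8% and 4.29% of all tested genes. Their median was -0.29. *ryr1b*, the calcium release channel of fast-rich cells, had 628, 377 and 370 CPM (log2 ratio -0.75, -0.86 to -0.64), and *jph1a* and *jph1b*, junctophilins that hold the reticulum against the surface membrane, had log2 ratios of -0.71 and -0.81. *pvalb3* was lower at -1.07, with 16.1% of its UMIs in 1 cell. *pvalb4* was higher, with 3897, 7765 and 6108 CPM (0.83, 0.81 to 0.88). In fast-rich cells it had 1518, 2897 and 2127 CPM, where gSema4abR2 lay inside 1.5-fold. In slow-rich cells, where *pvalb4* was most abundant, it had 21424, 28040 and 22250 CPM. Its summed level thus includes the difference in slow-rich cells. It lost the call with equal weight per cell, at 0.65, and had a log2 ratio of 0.70 in the other barcodes as well. The pump *atp2a1* had 5370, 5404 and 4786 CPM and a log2 ratio of -0.08 (-0.10 to -0.04). With TMM scaling *ryr1b* was at -0.58, *jph1a* at -0.54 and *pvalb3* at -0.91, and all 3 lost the call.

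None of 17 tested genes of energy metabolism was called, and their median was -0.04. *ak1* had 3754, 3778 and 3790 CPM, *gapdh*, a glycolytic enzyme, 1525, 1502 and 1546 CPM, and *eno3*, the muscle enolase, 954, 930 and 975 CPM. The log2 ratio of *ak1* was 0.01 (-0.03 to 0.05). All 3 libraries lay within a few percent of each other for these 3 of the 17 genes.

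Genes of the synapse and of the membrane were lower as far as they were called. Of 8 tested neuromuscular junction genes 3 were called lower, against 10.8% of all tested genes, with a median of -0.50. *chrnb1*, a subunit of the acetylcholine receptor, had 135, 76.2 and 77.6 CPM (log2 ratio -0.81, -1.05 to -0.58), *chrnd*, another subunit, had 77.0, 51.2 and 46.8 CPM, and *scn4ab*, the sodium channel of the muscle action potential, had 166, 105 and 86.6 CPM. *chrna1*, a further subunit of the same receptor, had 104, 93.0 and 111 CPM (-0.03, -0.28 to 0.21). With TMM scaling *chrnd* was at -0.48 and *scn4ab* at -0.62, and both lost the call, which *chrnb1* kept at -0.64.

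Of 10 tested genes of the membrane and the dystrophin complex 3 were called lower, against 10.8% of all tested genes. Their median was -0.49. *dmd*, which links the cytoskeleton to the membrane, had 441, 263 and 256 CPM (log2 ratio -0.76, -0.89 to -0.63), and lost the call with TMM scaling at -0.59, where 1 repeat lay inside 1.5-fold. *sgcg*, a sarcoglycan of the same complex, had 175, 88.5 and 84.7 CPM (-1.01, -1.22 to -0.80), and *lama2*, a laminin chain of the basement membrane to which the complex binds, had 105, 45.9 and 38.3 CPM (-1.32, -1.60 to -1.02). In the other barcodes their ratios were -0.20, -0.79 and -0.91. *dag1*, the dystroglycan gene, was at -0.43 and *cav3*, caveolin of muscle, at 0.19 with 295, 339 and 331 CPM. After thinning *dmd* was in 43.2%, 34.2% and 23.9% of cells and *ryr1b* in 52.8%, 37.4% and 29.4%, against at most 1.17% and 0.390% of globin-rich barcodes. Without thinning *dmd* was in 60.8%, 51.5% and 43.0% and *ryr1b* in 61.4%, 50.5% and 43.4% of cells, and globin-rich barcodes had at most 1.95% and 0.749%.

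Myogenic genes had 3 lower calls among 10 tested, against 10.8% of all tested genes, with a median of -0.36. *cdh15* had 370, 173 and 175 CPM (log2 ratio -1.09, -1.24 to -0.94), *mymk* had 156, 79.9 and 69.6 CPM (-1.06, -1.28 to -0.83), and *mef2aa*, a transcription factor that activates muscle genes, had 422, 281 and 254 CPM and lost the call with TMM scaling at -0.49. *cdh15* and *mymk* also lay in this order in the *myog*-positive barcodes outside the set, with 510, 335 and 347 CPM and with 189, 125 and 117 CPM. *myog* had 228, 206 and 202 CPM (-0.16, -0.32 to 0.01) and was not called. Cells of 2 to 10% contractile share, in which the levels of *mymk* and *cdh15* were highest, made up 52.5%, 58.7% and 64.7% of the cells.

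No gene of the degradation and stress list was called among 11 tested, and 1 of 7 immediate early genes was, *nr4a1*, a nuclear receptor induced by activity, with 81.6, 50.8 and 40.7 CPM. The 1 lower call of 7 is near the share over all tested genes, 10.8%. *trim63a*, a ubiquitin ligase of muscle wasting, had 143, 154 and 137 CPM (log2 ratio 0.02, -0.17 to 0.24), and *fosab*, an AP-1 gene, 215, 195 and 236 CPM. *hsp90aa1.1* had 1287, 940 and 732 CPM, with gSema4abR1 inside 1.5-fold.

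**Figure D5:**
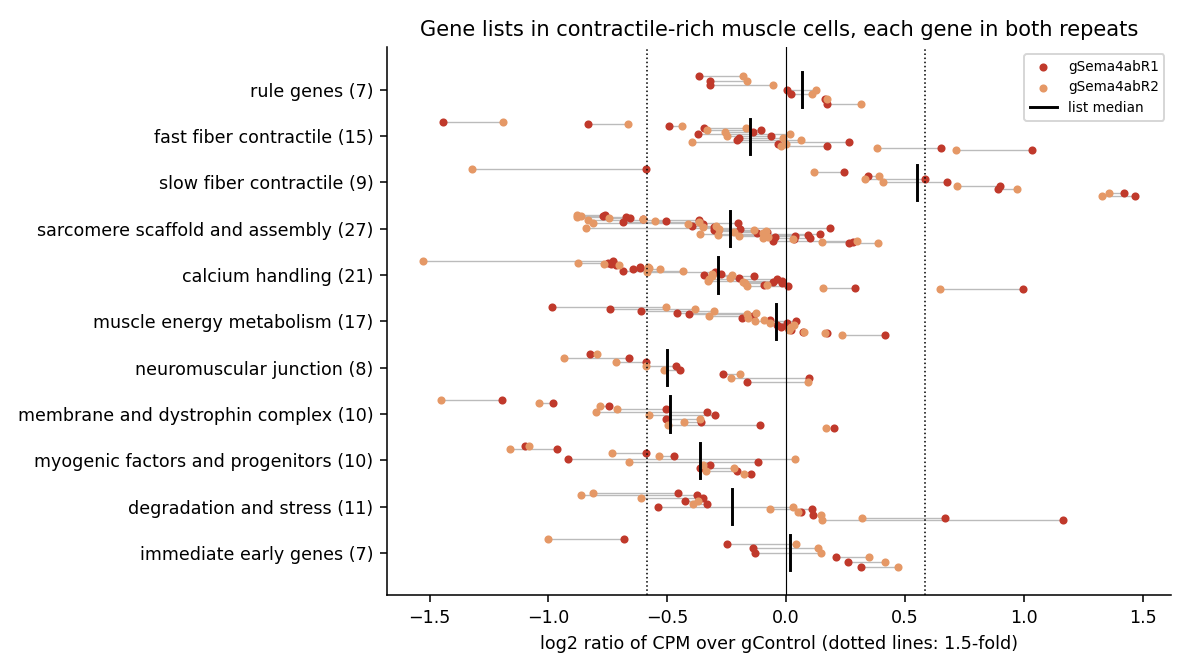
Log2 ratio of CPM over gControl (x axis) of each tested gene in both repeats (joined points), for 11 gene lists (y axis, with the number of tested genes); black lines are list medians and dotted lines 1.5-fold. The medians go from -0.50 for the neuromuscular junction to 0.55 for slow fiber genes, and those of the rule genes and of energy metabolism are 0.06 and -0.04.

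Among single genes, those with the highest ratios were in part the markers of slow cells. *tnni4b.2*, a troponin I, had 448, 1211 and 1251 CPM (log2 ratio 1.46, 1.35 to 1.56), and *ACTC1*, an actin gene so named in the annotation, had 185, 551 and 456 CPM (1.45, 1.3 to 1.62). Both were genes of slow-rich cells, with 5430 and 2059 CPM there against 42.8 and 59.2 CPM in fast-rich cells. *txn*, thioredoxin, had 53.9, 163 and 182 CPM (1.67, 1.38 to 1.98), and *gstp1*, a glutathione S-transferase, had 44.1, 113 and 125 CPM (1.43, 1.1 to 1.77). Both are abundant in other barcodes, where their ratios were 0.27 and 0.48. In fast-rich cells alone *txn* was at 1.61 and *gstp1* at 1.21.

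Of the other genes with the highest ratios, *ndufa4*, a mitochondrial subunit, was at 1.44, *fthl27*, a ferritin heavy chain, at 1.41, and *hbbe1.2*, an embryonic globin, at 1.75. *si:ch211-153b23.5*, with a ratio of 5.96, had 69.5% of its UMIs in 1 cell, and *actc1c*, with 2.33, had 50.3%. *ndufa4* and *actc1c* were also genes of slow-rich cells, with 263 and 475 CPM there against 21.2 and 3.80 CPM in fast-rich cells. Their summed levels thus include the difference in slow-rich cells. Within slow-rich cells *ndufa4* had 164, 414 and 151 CPM and *actc1c* 194, 293 and 833 CPM. *si:ch211-207n23.2* was at 1.72 and *CR318588.4* at 1.63, with 29.3% and 16.4% of their UMIs in 1 cell. Both, and also *fthl27* and *hbbe1.2*, had higher levels in the other barcodes, where the ratios were 0.14, 0.26, 0.38 and 1.06. For *fthl27* and *hbbe1.2*, 1 cell held 21.9% and 16.9% of the UMIs. *myh7* had the ratio 1.41 with 119, 473 and 159 CPM, so that gSema4abR2 lay close to gControl and the gene was not called. Of the genes with the lowest ratios, *acta2* and *tagln*, genes of smooth muscle, *and1*, a fin fold gene, *krt17*, an epidermal keratin, and *clu*, the secreted chaperone clusterin, had between 51.3% and 71.4% of their UMIs in 1 cell, and *lyz*, a neutrophil gene, had 48.2%. *col12a1b*, a collagen of fibroblasts at the lesion, was at -1.37 and turned to 0.40 when each cell was weighted the same. *angptl4*, a secreted inhibitor of lipoprotein lipase, had 144, 57.7 and 51.6 CPM (-1.40, -1.65 to -1.14), with 4.33% of its UMIs in the leading cell and a ratio of -0.94 in the other barcodes.

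A last group of genes was lower in the other barcodes of the repeats as well. The gene annotated as *NC_002333.17* had 3703, 1012 and 908 CPM in the contractile-rich cells (log2 ratio -1.95) and a ratio of -1.70 in the other barcodes. Its symbol does not start with mt-, so the mitochondrial shares given above leave it out. *FO704772.3* was at -2.20 and -1.94, *zgc:158463* at -1.61 and -1.12, and *CT027638.1* at -1.47 and -0.99 in the same order. These ratios were thus shared by the libraries as a whole. *xirp2b* had 346, 165 and 159 CPM (-1.10, -1.25 to -0.95) and likewise a ratio of -1.12 in the other barcodes. It was placed in the tenocyte list, while *xirp1* and *xirp2a* were placed among the scaffold genes. The scaffold counts thus leave it out.

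Genes of other cell types were present at low levels, and the levels of some lists differed between the libraries. The globin and erythroid list took 0.546%, 0.707% and 1.38% of the UMIs of the contractile-rich cells. In fast-rich cells alone the list took 0.635%, 0.627% and 1.11%, so that gSema4abR1 did not lie above gControl there. Of its 8 tested genes 3 were called higher and none lower, against 4.29% and 10.8% of all tested genes, with a median of 1.22. In the other barcodes the list took 3.62%, 5.42% and 6.22%. The epidermis list took 0.275%, 0.193% and 0.169%, with 3 of 10 genes called lower against 10.8% of all tested genes, and the other barcodes held 2.19%, 1.32% and 1.36%. Cells with at least 1% of UMIs from globin, epidermis or immune genes were 10, 13 and 46, of which 41 in gSema4abR2 carried globin. Without them the contractile-rich cells were 148, 193 and 175, or 1.07%, 1.41% and 1.3% of the filtered barcodes, so the repeats changed their order and stayed above gControl. Genes past the call were then 58 higher and 173 lower. Scrublet scores put 21.5%, 23.3% and 19.5% of the contractile-rich cells among the likely doublets, against 11.1%, 10.9% and 10.8% of all filtered barcodes. The part of free RNA or doublets in the called genes was not tested.

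The remaining lists held little. Neuron, endothelium and radial glia genes had no tested gene, and macrophage, notochord and pigment lists had 1 tested gene each, none of which was called. Of 5 tested fibroblast genes 2 were called lower, against 10.8% of all tested genes. These were *col12a1b* and *col1a1a*, the latter with 37.1% of its UMIs in 1 cell. A further 17, 34 and 32 barcodes with at least 2% of UMIs in the 7 genes had been removed for mitochondrial transcripts, and 2, 9 and 4 for more than 50000 UMIs. No barcode sequence was shared among contractile-rich cells of different libraries, although 10 of these cells carried a barcode that another library holds outside the set. Among all filtered barcodes 169 sequences occurred in more than 1 library.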

How the data were processed

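scRNA-seq was made with 10x 3′ v3 chemistry. The authors counted UMIs per gene and barcode with Cell Ranger 7.1.0 on GRCz11 with an Ensembl annotation. The deposited matrices hold these counts for 32521 features and called barcodes, without normalization. Barcodes with at least 200 genes, 500 to 50000 UMIs and under 20% mitochondrial UMIs were kept, and those with at least 2% of UMIs in the 7 genes were taken. Members and gene lists were chosen with earlier results of these data known. Of 336 list genes 323 matched by symbol. No doublets were removed in the main values, and Scrublet (scanpy 1.11.5, 0.8% of a library per 1000 barcodes) served as an alternative. CPM were summed UMIs over the total UMIs of the cells, and log2 ratios set the mean of the repeats against gControl after 0.5 UMIs were added. No p-value was computed, since each condition is 1 pool.

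Named genes were the 7 genes, those with most UMIs of each list, the 12 highest and 12 lowest log2 ratios among tested genes with both repeats on 1 side, and the 20 genes in at least 20% of the cells with the highest ratio to other barcodes after 20 CPM were added. Genes outside this rule (such as *chrna1*, *cav3*, *prdm1a*, *ryr1a*, *myom2a*) were chosen after their values were seen. Alternatives were the threshold (1, 5 and 10%), TMM scaling (edgeR 4.0.16 in R 4.3.3), scaling without the 7 genes, equal weight per cell, doublet removal, filters on low genes, removal of cells with genes of other types, and leaving out a repeat. A minimum of 1000 UMIs and fast-rich cells alone were added after the data had been seen. Promoter sequences were not analysed here. Python 3.11.15 with numpy 2.4.6, scipy 1.17.1, pandas 2.3.3 and matplotlib 3.10.9 was used, and the scripts were tested on simulated data.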

Additional observations from a re-analysis of the deposited data

How the results depend on the processing

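The ratio of the share of contractile-rich cells in gSema4ab to gControl was 1.38, and 1.69 at a threshold of 1%, 1.08 at 5%, 1.11 at 10% and 1.29 for cells of at least 1000 UMIs, from 1.32 to 1.44 with a repeat left out, and 1.32 to 1.38 with thinning, doublet removal or a limit on UMIs per gene. The 75 higher genes became 145 with TMM scaling, 148 with equal weight per cell, 45 at 10%, 33 at 200 CPM and 2533 without a filter, and 109 to 140 with a repeat left out. The 189 lower genes became 83 with TMM scaling, 121 at 5%, 73 at 10%, 30 at 200 CPM and 4207 without a filter, and 295 to 339 with a repeat left out, when a call asks for 1 repeat only. Of the 75 higher and 189 lower genes, TMM scaling kept 75 and 83, and equal weight per cell kept 41 and 79. Doublet removal kept 53 and 147, and the 10% threshold 20 and 56. The stricter filters leave fewer genes tested, and the cause of the other shifts was not tested. The slow fiber median of 0.55 was 0.81 at 200 CPM and 0.41 to 0.68 with a repeat left out. It was 1.76 in fast-rich cells, where 4 genes were tested, and -0.23 at 10%, where 1 gene was tested. At 5% it was 2.51, but gControl held only 2 slow-rich cells of 5 to 10% and none above. In this bin the repeats held 11 and 5. The scaffold median of -0.24 was -0.063 with TMM scaling, -0.44 with equal weight per cell and -0.16 at 5%, and -0.30 to -0.20 with a repeat left out. The ratio of slow-rich percentages was 1.64, and 1.51 after thinning and 1.58 to 1.70 with a repeat left out. Without cells carrying genes of red blood cells, epidermis or immune cells, slow-rich cells were 16 of 148, 33 of 193 and 25 of 175. Of filtered barcodes with at least 0.5% slow myosin UMIs, the set held 14 of 35, 25 of 36 and 20 of 29. The part of this unequal capture in the ratio of slow-rich percentages was not tested. A call asks for both repeats, so leaving out 1 of them or changing only the filter on low genes cannot remove it. By construction, all tested values of the 57 called genes that were named or in a list thus kept the call there. They were 55 and 56 with a repeat left out, 29 at 200 CPM and 57 without a filter. Over these 57 genes and 13 settings, these settings included, 569 of 645 values kept the call, 67 lost it and 9 turned. These were *col1a1a* (0.42 with equal weight, 1.39 at 5%, 1.04 at 10%, 0.36 without doublets, 0.086 without cells carrying other genes), 1 of the genes named *hbae1.3* (-0.18 at 5%), *col12a1b* (0.40 with equal weight) and *cyt1* (0.18 at 10%, 0.62 without doublets). No paired analysis was possible because gControl has 1 library and no test was run. Depth limits genes such as *sema4ab*, with 82 UMIs in all cells.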
